A study of Mus musculus with 42 samples.

Results

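The Hoxd cluster of the mouse was examined for SOX2, β-catenin and LEF1 peaks in cells that the labels call epiblast-like. The study names those given CHIR99021, 27 of the 30 libraries here, caudal epiblast-like cells. The cluster holds 9 Hoxd genes in a row on mouse chromosome 2, all transcribed in the same direction, from Hoxd13 at position 74668310 to the end of Hoxd1 at 74765142 (mm10), and the window examined added 10 kb on either side (116833 bp in all). The members were these 9 genes and every peak whose summit, the position of highest signal in a peak, lay in the window. Of the 600000 peaks taken from 30 libraries (the 20000 best of each), 237 lay in the window. Of the 9218878 peaks of the full lists, 1278 did. Each peak was assigned to the Hoxd gene with the nearest annotated transcription start.

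Binding was measured by chromatin immunoprecipitation followed by sequencing in HM1 mouse embryonic stem cells (strain 129) differentiated for 2 days in N2/B27 medium with bFGF and LGK974, an inhibitor of the release of WNT ligands. Until collection on day 3 (72 h) the cells were kept in this medium alone (noCHIR) or with CHIR99021 added (CHIR), a compound that activates WNT signalling by inhibiting the kinase GSK3. The genotypes were wild type (WT), Cdx1/2/4-/- (CdxKO) and T/Bra-/- (T/BraKO). All 3 factors were profiled in the 3 genotypes with CHIR, and SOX2 also in WT noCHIR, with 3 replicates in each of 10 groups. The medium with bFGF and LGK974 was common to all groups. Each genotype was carried by a cell line of its own, so that line and genotype cannot be told apart, and peak lists carry no measure of whether the deleted genes were lost. All libraries carried the same experiment label. The 12 input samples were not analysed here.

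Hox genes encode homeodomain transcription factors that set position along the body axis. Within a cluster they are activated in order, starting with the anterior genes (Hoxd1, Hoxd3 and Hoxd4 here) and ending with the posterior genes (Hoxd10 to Hoxd13), and WNT signalling and the CDX factors are known inputs to this activation in posterior embryonic tissue. SOX2 helps to maintain stem cells and the early nervous system. β-catenin carries the WNT signal into the nucleus, where LEF1, which binds DNA itself, holds it at target sites.

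The sequences below, read from GRCm38.p6 (the build of the lists), are shown because they hold the leading region of the anterior, central and posterior parts of the cluster and the 2 regions that separated groups of libraries completely. Each line gives 300 bases around the best summit of the region. Capitals mark matches on either strand to CCATTGT or CCTTTGT (SOX), CTTTGAA or CTTTGAT (TCF/LEF), to CAATAAA or else CCATAAA or otherwise TAATAAA or finally TCATAAA (CDX) and AGGTGTGA (T-box).
Hoxd1 upstream region, chr2:74760170-74760469, + strand: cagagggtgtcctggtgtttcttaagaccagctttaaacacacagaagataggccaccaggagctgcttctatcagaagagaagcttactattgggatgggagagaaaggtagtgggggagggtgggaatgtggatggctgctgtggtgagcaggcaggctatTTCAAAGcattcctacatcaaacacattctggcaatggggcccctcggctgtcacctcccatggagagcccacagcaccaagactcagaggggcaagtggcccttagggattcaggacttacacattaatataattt
Hoxd9 downstream region, chr2:74700995-74701294, + strand: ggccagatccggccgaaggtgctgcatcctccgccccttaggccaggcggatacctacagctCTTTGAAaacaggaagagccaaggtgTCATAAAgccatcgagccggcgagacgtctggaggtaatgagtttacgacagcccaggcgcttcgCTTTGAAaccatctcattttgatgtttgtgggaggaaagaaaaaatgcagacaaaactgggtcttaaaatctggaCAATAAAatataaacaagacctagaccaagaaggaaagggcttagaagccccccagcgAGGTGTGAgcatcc
Hoxd12 upstream region, chr2:74672726-74673025, + strand: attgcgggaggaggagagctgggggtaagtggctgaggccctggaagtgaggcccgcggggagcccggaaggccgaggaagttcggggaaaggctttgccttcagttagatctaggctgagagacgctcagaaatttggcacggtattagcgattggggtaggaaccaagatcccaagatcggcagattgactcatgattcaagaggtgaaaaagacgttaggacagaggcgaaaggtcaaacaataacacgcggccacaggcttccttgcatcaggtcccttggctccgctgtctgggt
Hoxd4 upstream region, chr2:74721582-74721881, + strand: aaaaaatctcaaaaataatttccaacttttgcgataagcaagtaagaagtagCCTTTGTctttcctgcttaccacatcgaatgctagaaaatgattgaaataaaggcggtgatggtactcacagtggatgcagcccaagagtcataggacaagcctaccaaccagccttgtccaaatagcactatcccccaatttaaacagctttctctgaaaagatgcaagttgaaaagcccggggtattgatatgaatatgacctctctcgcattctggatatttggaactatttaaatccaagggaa
Hoxd3 intron region, chr2:74734510-74734809, + strand: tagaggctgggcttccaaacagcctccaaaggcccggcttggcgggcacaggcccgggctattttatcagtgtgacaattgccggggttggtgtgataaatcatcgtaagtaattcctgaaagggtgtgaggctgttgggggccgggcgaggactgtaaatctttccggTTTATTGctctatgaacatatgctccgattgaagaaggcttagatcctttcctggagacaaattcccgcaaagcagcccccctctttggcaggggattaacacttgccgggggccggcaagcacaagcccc

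The strongest peak of the whole cluster lay upstream of Hoxd1, the most anterior gene, which is expressed early and later in sensory neurons. The region spanned chr2:74759401-74760984, with its best summit 2660 bp upstream of the Hoxd1 start, in an intron of Haglr, a long noncoding RNA transcribed from the opposite strand. It held a 20000-best peak in 9 of 9 β-catenin, 9 of 9 LEF1 and 5 of 12 SOX2 libraries. In all 18 β-catenin and LEF1 libraries it was the best peak of the window, at rank 7 to 130 of the list. Only 213 of the 336403 regions obtained by merging all 30 lists (0.0633%) were called in all 18.

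The summits of those 18 peaks lay within 57 bp of each other, from position 74760319 to 74760376. The TTCAAAG in the first sequence above, which is CTTTGAA on the minus strand, covers positions 74760333 to 74760339, inside that range. It was the single match to the 4 motifs in these 300 bases. Of all β-catenin regions in the genome 19.4% and of all LEF1 regions 15% held a TCF/LEF match within 100 bp of the summit.

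At this region the fold enrichment over background for β-catenin was 99.1, 74.6 and 88.0 in the 3 WT libraries. It was 69.4, 54.8 and 62.8 in CdxKO. In T/BraKO it was 98.2, 108 and 74.2. The lowest WT value lay above the highest CdxKO value, whereas WT and T/BraKO overlapped. The mean was 87.2 ± 12.3 (SD, n = 3) in WT and 62.3 ± 7.31 (SD, n = 3) in CdxKO (exact permutation p = 0.1, two-sided, the smallest that 3 against 3 libraries allow, adjusted p = 0.6 over 6 comparisons). This comparison was chosen after the values were seen. Among the 3630 β-catenin regions with a peak in all 6 of these libraries, the WT values lay above all CdxKO values in 7.27%, and the median ratio of CdxKO to WT was 0.988 against 0.714 at this region.

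For LEF1 the fold enrichment at the Hoxd1 upstream region was 36.2, 32.5 and 27.6 in WT, 36.8, 32.6 and 26.0 in CdxKO and 25.7, 37.8 and 50.3 in T/BraKO. The 3 genotypes overlapped. The difference from WT was -0.3 for CdxKO (exact permutation p = 1.0) and 5.83 for T/BraKO (exact permutation p = 0.6). SOX2 was far weaker there, and its difference from WT CHIR was -2.98 in fold for CdxKO (exact permutation p = 0.3, n = 3 each) and -2.83 for T/BraKO (exact permutation p = 0.3, n = 3 each), with overlapping groups. Its fold enrichment over the 11 libraries with a peak in the full list ran from 3.79 to 10.1, and its rank from 2337 to 169800. With CHIR the 9 SOX2 libraries all had a peak in the full lists. In WT noCHIR 1 library had a 20000-best peak (fold 6.77), 1 had a weak peak (fold 3.87) and 1 had none. The list of that last library held 81239 peaks. The peaks of CdxKO replicate 1 and T/BraKO replicate 1 stood beyond that length, at ranks 104032 and 169800. Among the 20000 best, SOX2 was called in 1 of 3 WT noCHIR, 2 of 3 WT CHIR, 1 of 3 CdxKO and 1 of 3 T/BraKO libraries. The share over all regions was not taken for the full lists.

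**Figure D1:**
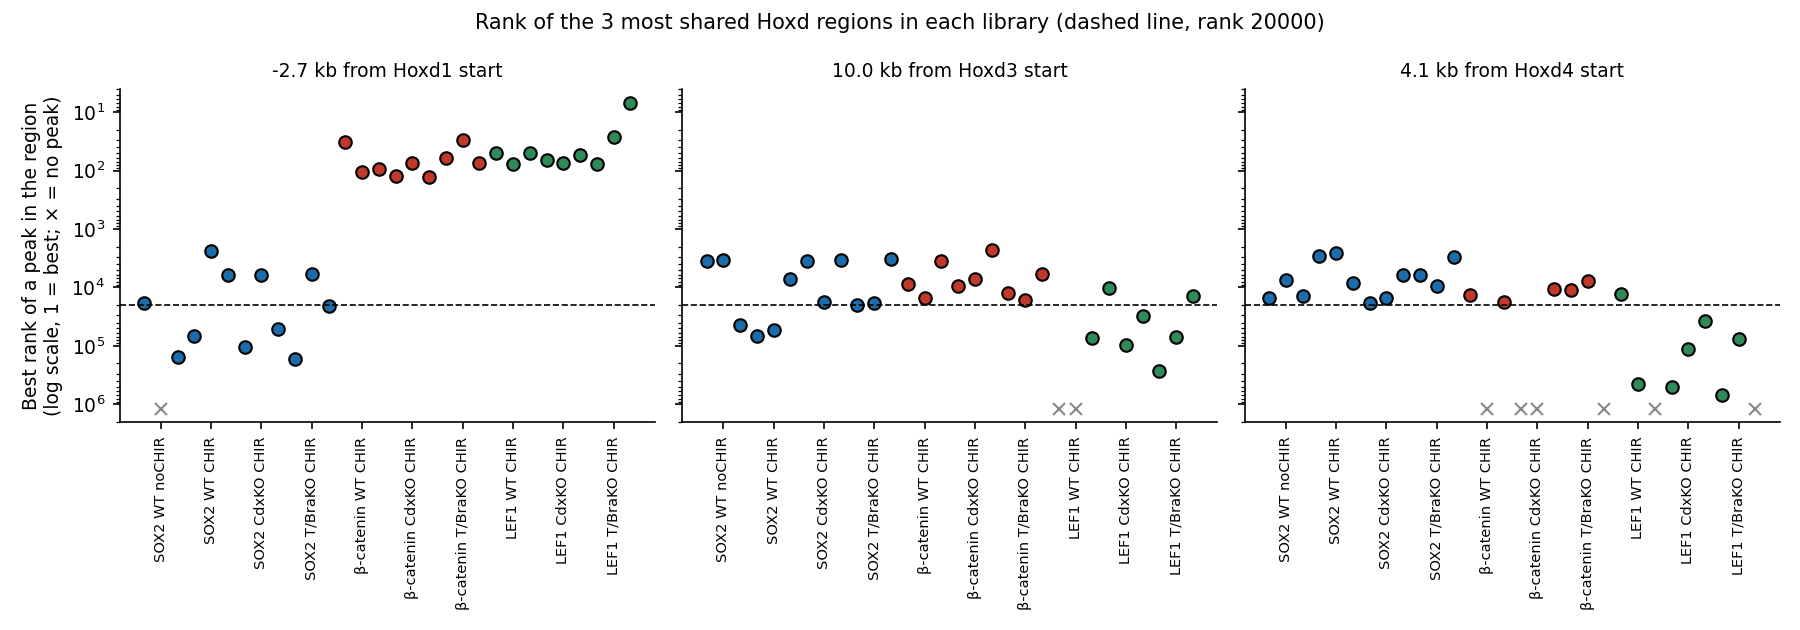
Rank of the best peak (log axis, 1 at the top) in the 3 regions called in most libraries, for each of 30 libraries in groups of 3. Upstream of Hoxd1 (left) all β-catenin and LEF1 libraries sit between rank 7 and 130 and all SOX2 peaks at rank 2337 or worse, while in the middle panel the 9 β-catenin libraries lie between rank 2293 and 16552 and in the right panel 4 of them have no peak. Crosses mark libraries without a peak and the dashed line marks rank 20000.

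The rank of this region was set beside the best peak of the other Hox clusters, taken in windows of the same kind. For β-catenin the best Hox peak was in the Hoxd window in 7 of 9 libraries and in the Hoxb window in 2. For LEF1 it was in the Hoxd window in 5 of 9 and in the Hoxb window in 4. For SOX2 it was in the Hoxb window, nearest to Hoxb1, in 12 of 12. The median rank of the best Hoxd peak was 75 for β-catenin and 53 for LEF1 but 3222.5 for SOX2. That of the best Hoxb peak was 146 for β-catenin, 42 for LEF1 and 124 for SOX2, so that for LEF1 Hoxb had the better median although Hoxd led in more libraries. These ranks are a description, since each library gives all 4 values.

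SOX2 had no such dominant site. Its best Hoxd peak fell nearest to Hoxd3 in 5 libraries, Hoxd1 in 3, Hoxd13 in 2, and Hoxd4 and Hoxd12 in 1 each, at ranks 1500 to 9517. The region that SOX2 occupied most evenly was chr2:74730703-74731638, an intron of Hoxd3 and of Gm28230, 4148 bp downstream of the last start of Hoxd4, a gene of the hindbrain and cervical vertebrae. It was called in 12 of 12 SOX2 libraries, with fold enrichments of 5.60 to 13.6 and ranks of 2525 to 18154. The group means were 8.32 ± 2.64 in WT noCHIR, 9.51 ± 3.56 in WT CHIR, 6.98 ± 1.47 in CdxKO and 8.48 ± 0.399 in T/BraKO (SD, n = 3 each), which overlapped. The 12 SOX2 summits lay within 199 bp. β-catenin was called there in 5 of 9 libraries and LEF1 in 1 of 9, and no match to the 4 motifs lay within 100 bp of the best summit. Of all merged regions 1386 (0.412%) were called in all 12 SOX2 libraries.

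The region chr2:74749302-74750595 was the most shared between SOX2 and β-catenin. Its best summit lay in an exon of Haglr, 10012 bp downstream of the last Hoxd3 start. β-catenin was called in 9 of 9 libraries, with fold enrichments of 5.29 to 15.2. SOX2 was called in 9 of 12, with 2 of 3 in WT noCHIR, 1 of 3 in WT CHIR and 3 of 3 in each mutant. In the full lists all 12 SOX2 libraries had a peak there. LEF1 was called in 2 of 9 libraries. At chr2:74752492-74753303, in a Haglr intron 10095 bp upstream of Hoxd1, SOX2 was called in 2, 1, 3 and 1 of 3 libraries in WT noCHIR, WT CHIR, CdxKO and T/BraKO, and β-catenin in 1 library.

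**Figure D2:**
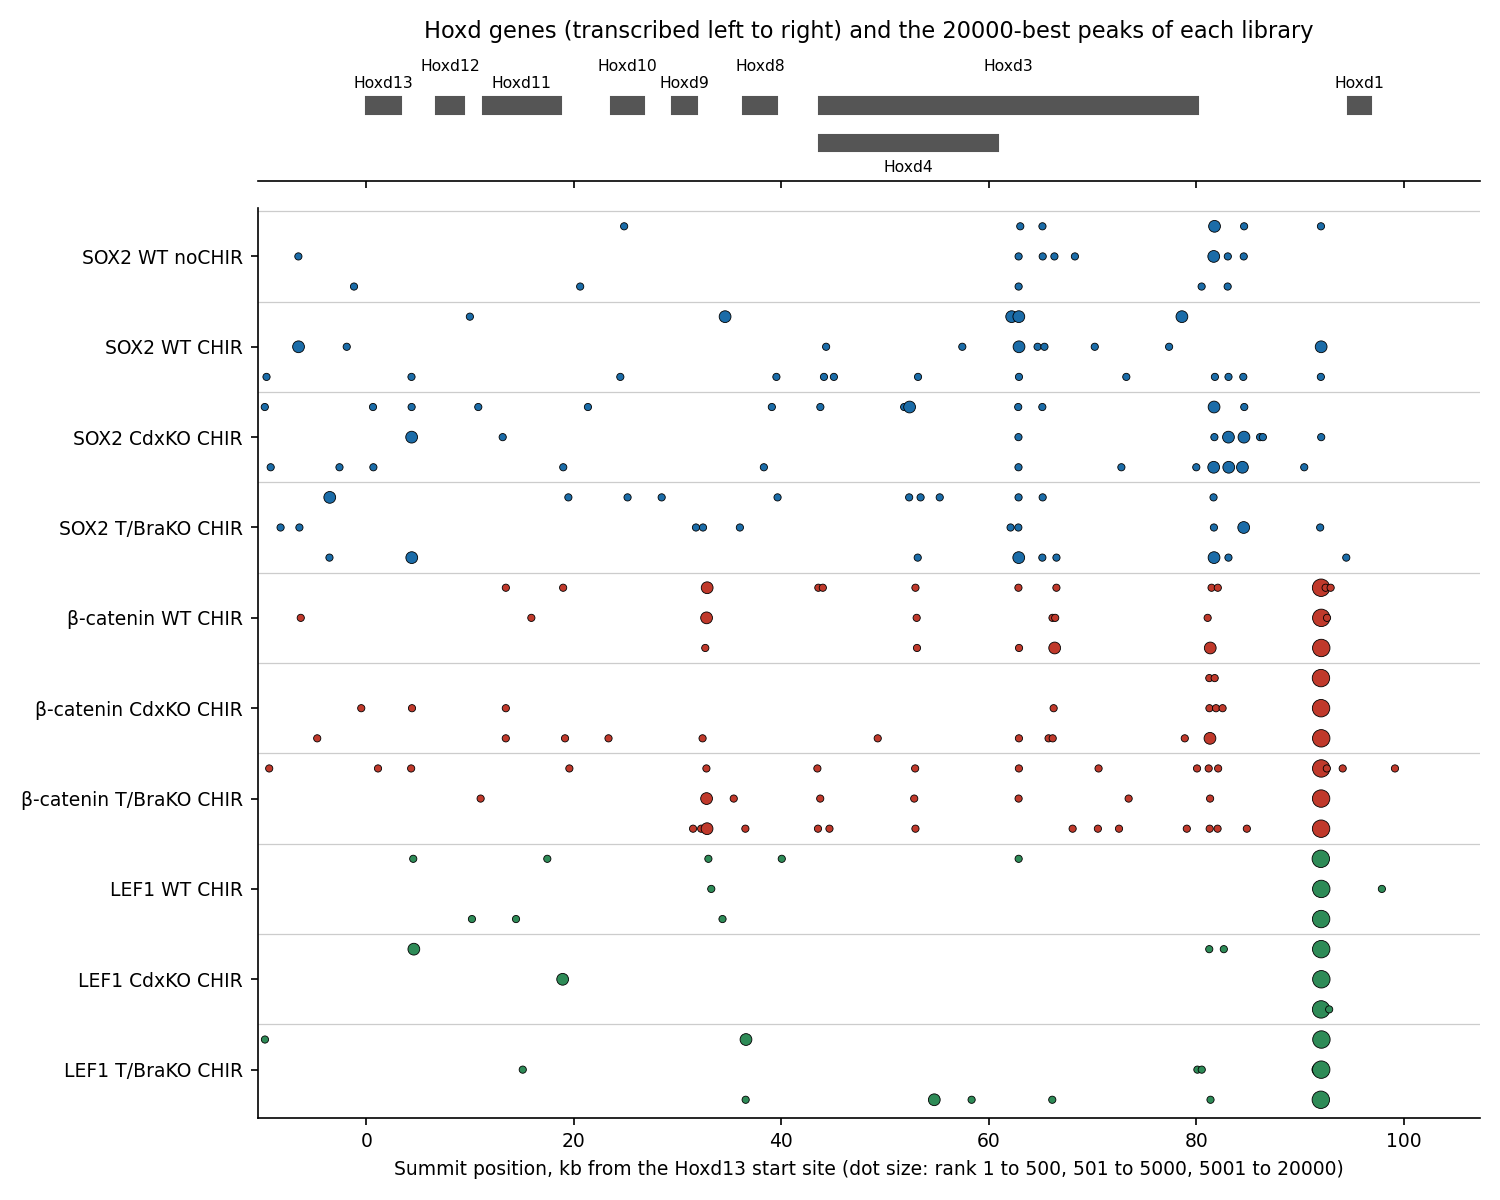
Position of every 20000-best peak (dots) along the Hoxd window, in kb from the Hoxd13 start, for 30 libraries in groups of 3, below the gene bodies. Dot size gives the rank class. The column of large dots just left of Hoxd1, present in all 18 β-catenin and LEF1 libraries, is the Hoxd1 upstream region, and the SOX2 column just right of Hoxd4 is the region called in 12 of 12 SOX2 libraries.

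The 2 regions that separated groups completely in the 20000-best lists were both β-catenin regions in the anterior part. The Hoxd4 upstream region, chr2:74720811-74721813, lay 246 bp upstream of the first Hoxd4 start by its best summit, in introns of Hoxd3 and of Hoxd4. β-catenin was called there in 3 of 3 WT and 3 of 3 T/BraKO libraries and in 0 of 3 CdxKO libraries. The fold enrichments were 6.30, 5.50 and 8.32 in WT and 6.89, 5.76 and 6.05 in T/BraKO. The full CdxKO lists held no peak there either. SOX2 also had no peak there in any full CdxKO list, against 1 of 3 in WT noCHIR, 2 of 3 in WT CHIR and 2 of 3 in T/BraKO. Of the WT CHIR peaks, 1 stood at rank 310362, beyond the end of every SOX2 CdxKO list, with its summit at 74720579, outside the region. LEF1 had a full-list peak in 2 of 3 WT, 1 of 3 CdxKO and 0 of 3 T/BraKO libraries. Shares over all regions were not taken for these full-list contrasts. The peaks were modest, at ranks 9332 to 18364 for β-catenin, and the CCTTTGT (SOX) match in the fourth sequence lay 95 bp from the best summit, which came from a SOX2 library. The β-catenin summits lay further upstream of the Hoxd4 start, from position 74721118 to 74721385, outside the fourth sequence. That sequence, its SOX match and the distance of 246 bp therefore do not describe the β-catenin peaks.

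The Hoxd3 intron region, chr2:74734219-74734929, lay 1855 bp upstream of an internal start of Hoxd3, a gene of the first neck vertebra. β-catenin was called in 3 of 3 WT libraries (fold 5.77, 7.38 and 17.1), in 2 of 3 CdxKO libraries and in 0 of 3 T/BraKO libraries. For SOX2 the full lists held a peak there in 3 of 3 WT noCHIR, 3 of 3 WT CHIR, 0 of 3 CdxKO and 2 of 3 T/BraKO libraries. The WT CHIR peaks were weak, at ranks 599486, 93437 and 23838, and none was among the 20000 best. The first of these ranks lies beyond the end of every SOX2 CdxKO list (86068 to 172423 peaks), so list length limits this contrast. Its share over all regions was not taken. For β-catenin the full T/BraKO lists did hold a peak in all 3 libraries, with folds of 2.80, 4.94 and 4.79 and ranks from 24008 to 123931, so the call turned on the length of the list. The TTTATTG in the fifth sequence is CAATAAA (CDX) on the minus strand, 22 bp from the best summit.

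These 2 regions were read against the whole genome. For β-catenin, WT 3 of 3 against CdxKO 0 of 3 held for 1 of 21 Hoxd regions with a peak in either group and for 0.504% of all such regions, and CdxKO 3 of 3 against WT 0 of 3 for 0 of 21 and 0.321%. WT 3 of 3 against T/BraKO 0 of 3 held for 1 of 30 Hoxd regions and 0.608% of all, and the opposite for 0 of 30 and 0.807%.

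Among the 20000 best peaks, no Hoxd region separated the SOX2 or the LEF1 groups completely. With the full lists, regions that did so in either direction numbered 1 for SOX2 with and without CHIR, 5 for SOX2 in WT and CdxKO, 3 for SOX2 in WT and T/BraKO and 1 for LEF1 in WT and CdxKO. Of the 5, 4 were called in WT alone, and SOX2 WT CHIR replicate 1 had the longest list (1008922 peaks). The share over all regions was not taken for the full lists, so these counts cannot be read as particular to Hoxd. In the 20000-best lists, for SOX2 with and without CHIR, 0 of 29 Hoxd regions were called in 3 of 3 CHIR and 0 of 3 noCHIR libraries (0.141% of all regions), and 0 of 29 in the opposite direction (3.89%). Against CdxKO, 0 of 40 Hoxd regions were called in WT alone (0.0589%) and 0 of 40 in CdxKO alone (0.947%). Against T/BraKO the counts were 0 of 36 in WT alone (0.0422%) and 0 of 36 in T/BraKO alone (0.714%). For LEF1, 0 of 15 regions were called in WT alone against CdxKO (0.0346%) and 0 of 15 in CdxKO alone (0.0956%). Against T/BraKO, 0 of 20 were called in WT alone (0.0956%) and 0 of 20 in T/BraKO alone (0.0241%).

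**Figure D3:**
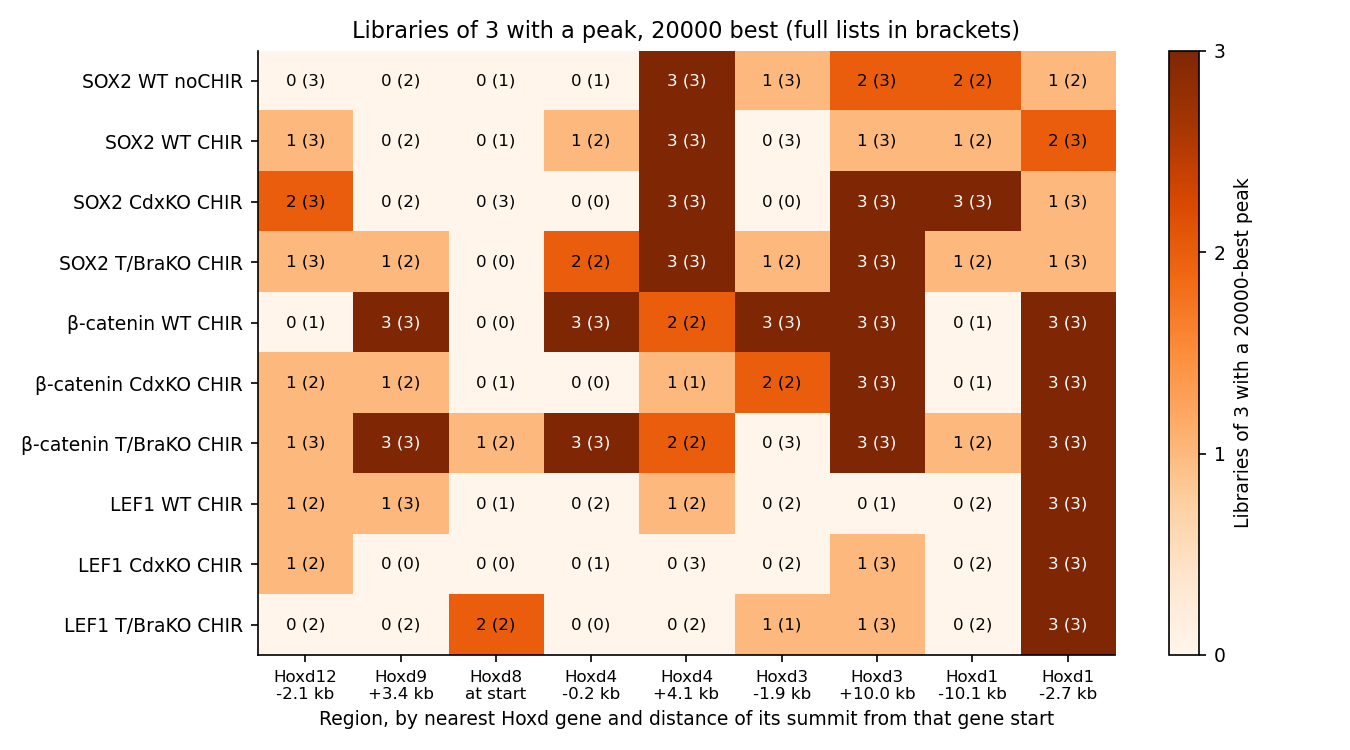
Number of libraries of 3 with a 20000-best peak (colour and first number) or a peak in the full list (in brackets) in 9 Hoxd regions, one column per region in cluster order, for 10 groups. The last column, upstream of Hoxd1, is 3 of 3 in all 6 β-catenin and LEF1 groups, and the Hoxd4 upstream column is 0 (0) for β-catenin and SOX2 in CdxKO.

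Across the cluster, peaks gathered at the anterior end. Of the 237 peaks 159 (67.1%) were nearest to Hoxd1, Hoxd3 or Hoxd4, 26 (11%) to Hoxd8 or Hoxd9 and 52 (21.9%) to Hoxd10 to Hoxd13. These parts cover 57%, 11.7% and 31.3% of the window, which gives 7.96, 6.32 and 4.75 peaks per 100 kb in a list of 20000. In the full lists the order was the reverse, at 35.2, 36.7 and 38.6 peaks per 100 kb, so the anterior excess belonged to the better-ranked peaks. All 30 libraries had an anterior peak. A posterior peak was present in 12 of 12 SOX2, 6 of 9 β-catenin and 6 of 9 LEF1 libraries.

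By gene, Hoxd3 had the most peaks (72, in 24 of 30 libraries), followed by Hoxd1 (50, in 28) and Hoxd4 (37, in 21). Their territories differ in size (27.9, 23.8 and 14.8 kb), and per 100 kb and list Hoxd3 had 8.6 peaks, Hoxd4 8.31 and Hoxd1 6.99. By nearest gene body in place of nearest start the counts were 108 for Hoxd3, 34 for Hoxd1, 28 for Hoxd13 and 17 each for Hoxd4 and Hoxd11. For LEF1 the order differed, with 12 peaks nearest to Hoxd1, 6 to Hoxd3 and 6 to Hoxd8. The central genes Hoxd8 and Hoxd9, which act in the trunk and limb, had 14 and 12 peaks. Of the 12 at Hoxd9, 9 were of β-catenin. The region called most often was chr2:74700504-74701412, between Hoxd9 and Hoxd8 and 3418 bp downstream of the Hoxd9 start, where β-catenin was called in 3 of 3 WT, 1 of 3 CdxKO and 3 of 3 T/BraKO libraries. The β-catenin folds there were 10.6, 11.7 and 7.36 in WT, 7.47 in the called CdxKO library and 8.85, 9.88 and 23.8 in T/BraKO. In the second sequence lie 2 CTTTGAA letters, 2 CDX matches and 1 T-box match.

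The posterior genes pattern the limb, the genitalia and the end of the axis. Hoxd13, which shapes the digits, had 20 peaks, of which 14 were of SOX2. Hoxd10, Hoxd11 and Hoxd12 had 12, 10 and 10. The posterior region called most often was chr2:74672202-74672987, intergenic, 2137 bp upstream of Hoxd12, with a 20000-best peak in 8 libraries (4 SOX2, 2 β-catenin and 2 LEF1). In the full lists it held a peak in 24 libraries, among them 12 of 12 SOX2. The third sequence has no match to the 4 motifs, but it is centred on a LEF1 summit. The 20000-best summits of SOX2 (74672649 to 74672675) and β-catenin (74672616 and 74672698) lay outside it. Its lack of a match therefore says nothing about those positions.

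**Figure D4:**
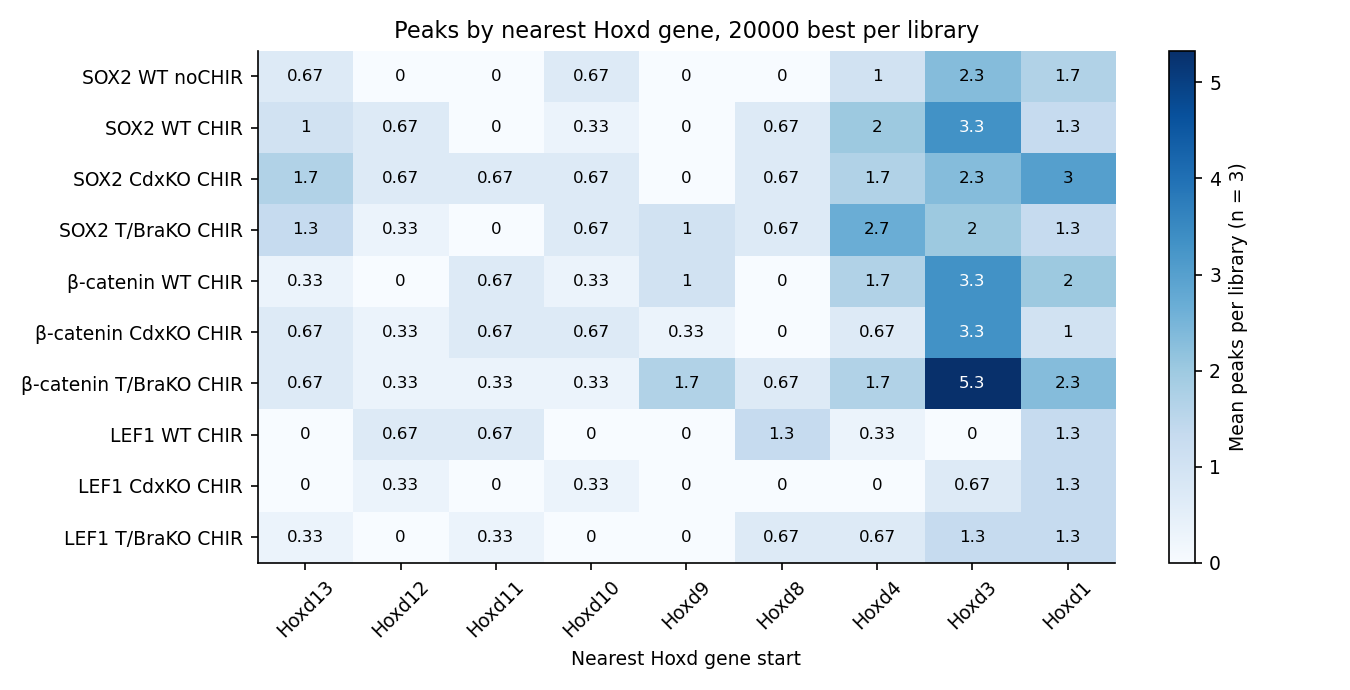
Mean number of 20000-best peaks per library (colour and printed value, n = 3 libraries) nearest to each Hoxd gene, from Hoxd13 on the left to Hoxd1 on the right, in 10 groups. The darkest cell is Hoxd3 for β-catenin in T/BraKO, with 5.3 peaks per library, followed by Hoxd3 at 3.3 for β-catenin in WT and CdxKO and for SOX2 in WT CHIR.

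The merged lists gave 83 Hoxd regions, of which 50 (60.2%) were called in 1 library only, against 83.7% of the 336403 regions of the genome. At least 6 libraries shared 11 Hoxd regions (13.3%, against 5.24% of all), and 9 of the 11 were anterior. By their best summit 43 regions lay in introns, 18 were intergenic, 9 were in exons of noncoding transcripts, 9 in untranslated exons and 4 in coding sequence, and 17 lay within 1000 bp of a Hoxd start. The median GC content within 100 bp of the summit was 49.3% against 45.8% for all regions.

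Peaks at Hoxd promoters were counted per group. A gene counted as occupied where a 20000-best peak overlapped the 1000 bp on either side of a start in at least 2 of 3 libraries. In WT noCHIR SOX2 occupied 0 of 9 Hoxd genes, against 11.4% of all 21827 protein-coding genes. In WT CHIR it was Hoxd3 (1 of 9, against 6.89%), in CdxKO Hoxd13 (1 of 9, against 11.8%) and in T/BraKO Hoxd4 (1 of 9, against 10.3%). β-catenin occupied Hoxd4 in WT (1 of 9, against 7.06%), Hoxd11 in CdxKO (1 of 9, against 6.19%), and Hoxd3, Hoxd4 and Hoxd8 in T/BraKO (3 of 9, against 7.84%). LEF1 occupied 0 of 9 in WT (against 1.31%), 0 of 9 in CdxKO (against 1.81%) and Hoxd8 in T/BraKO (1 of 9, against 1.31%). Of the 30 other Hox genes SOX2 occupied 7, 9, 9 and 17 in these groups, β-catenin 10, 4 and 13, and LEF1 3, 2 and 2.

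TCF/LEF, SOX, CDX and T-box letters within 100 bp of the summit were counted in the regions of each factor. In the 56 SOX2 regions of the window a SOX match was present in 10 (17.9%, against 17.1% of all SOX2 regions). A CDX match was present in 8 of them (14.3%, against 14.2%). In the 38 β-catenin regions a TCF/LEF match was present in 4 (10.5%, against 19.4%) and a CDX match in 11 (28.9%, against 13.3%). In the 23 LEF1 regions a TCF/LEF match was present in 4 (17.4%, against 15%) and a CDX match in 4 (17.4%, against 14.8%). With all 30 lists merged, 12 of the 83 Hoxd regions held a CDX match (14.5%, against 14.5%). T-box letters were present in 0 SOX2, 0 β-catenin and 1 LEF1 region, against 0.968%, 1.33% and 1.01% of all regions of each factor. These shares are a description with no test, and a match is not evidence of a site.

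The number of peaks in the window was compared between groups to ask whether CHIR or loss of the CDX or T/BRA factors changed how much of the cluster was bound. With 3 against 3 libraries the smallest p possible is 0.1, so none of these 7 comparisons could pass the threshold of 0.05, and the values are given for their size and overlap. SOX2 had 6, 8 and 5 peaks in the 3 WT noCHIR libraries and 5, 10 and 13 in WT CHIR, a difference in means of 3.00 (exact permutation p = 0.4, adjusted p = 0.933 over 7 comparisons). Leaving out 1 library moved it from 1.17 (without WT CHIR replicate 3) to 5.17 (without WT CHIR replicate 1). It had 13, 9 and 12 peaks in CdxKO (difference from WT CHIR 2.00, exact permutation p = 0.7) and 11, 10 and 9 in T/BraKO (difference 0.667, exact permutation p = 0.9). The groups overlapped in every comparison.

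β-catenin had 13, 9 and 6 peaks in WT, 3, 8 and 12 in CdxKO and 16, 9 and 15 in T/BraKO. The means were 9.33 ± 3.51, 7.67 ± 4.51 and 13.3 ± 3.79 (SD, n = 3 each). The difference from WT was -1.67 for CdxKO (exact permutation p = 0.7) and 4.00 for T/BraKO (exact permutation p = 0.3, adjusted p = 0.933). The latter ran from 2.33 (without WT replicate 3) to 6.17 (without T/BraKO replicate 2) when 1 library was left out. LEF1 had the fewest, with 6, 3 and 4 peaks in WT, 4, 2 and 2 in CdxKO and 3, 5 and 6 in T/BraKO. Its differences from WT were -1.67 (exact permutation p = 0.3) and 0.333 (exact permutation p = 1.0).

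**Figure D5:**
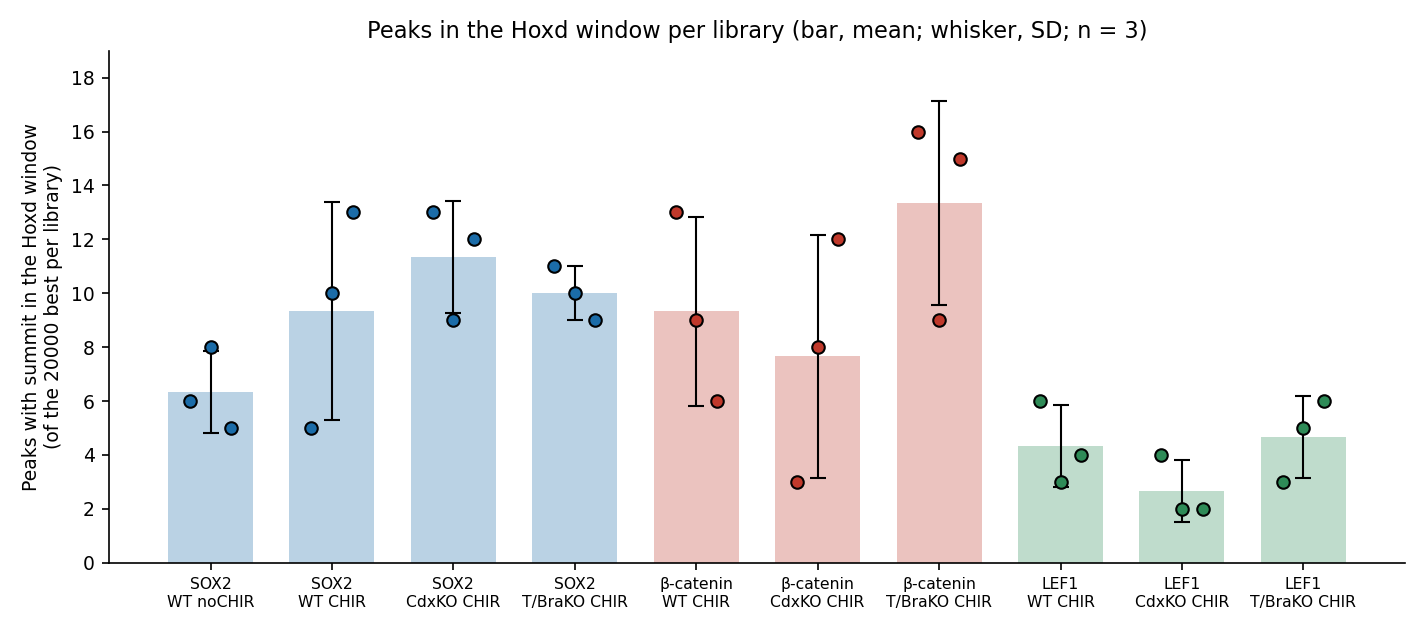
Number of 20000-best peaks with their summit in the Hoxd window in each library (points), with the mean (bar) and SD (whisker) of 3 libraries, for 10 groups. Libraries run from 2 (LEF1 CdxKO) to 16 (β-catenin T/BraKO) and the groups of each factor overlap.

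Setting each mutant against the 6 libraries of the other genotypes, where 84 assignments allow a p as small as 0.0119, gave no call, although after adjustment over 6 comparisons a single one at that p could not pass either. The largest differences were 4.83 peaks for β-catenin in T/BraKO (13.3 ± 3.79, n = 3, against 8.5 ± 3.73, n = 6, exact permutation p = 0.131, adjusted p = 0.393 over 6) and -3.67 for β-catenin in CdxKO (exact permutation p = 0.238, adjusted p = 0.476). For LEF1 in CdxKO the difference was -1.83 (exact permutation p = 0.107, adjusted p = 0.393).

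Whether Hoxd moved apart from the other clusters was asked by its share of all Hox peaks, which was 15.8% ± 4.31 for SOX2 in WT CHIR and 15.5% ± 0.85 in WT noCHIR (SD, n = 3 each, exact permutation p = 0.9). The largest difference was for LEF1, with 23.2% ± 4.09 in T/BraKO against 16.8% ± 2.54 in WT (n = 3 each, 6.43 percentage points, exact permutation p = 0.2, adjusted p = 0.7 over 7). In SOX2 the share was 19.8% ± 2.72 in CdxKO, 4.05 points above WT (exact permutation p = 0.2, adjusted p = 0.7). Per 100 kb and list the Hoxd window held 6.76 peaks, against 8.33 in Hoxa, 10.7 in Hoxb and 7.44 in Hoxc.

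Over the 30 libraries the Hoxd peak count ran most closely with that of the Hoxb window (Pearson r = 0.856), then Hoxa (0.76) and Hoxc (0.733). After the group means were removed these fell to 0.638, 0.581 and 0.317. Among 7690 protein-coding genes outside the Hox windows the closest were Fam222a (0.787), Spred2 (0.764), Clybl (0.736), Soga1 (0.735) and Sh3bp1 (0.727), each taken with 10 kb on either side. All counts come from the same libraries, which differ in factor and list quality, and the correlations are given with no test.

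The lists differed greatly in length, from 26940 peaks (SOX2 T/BraKO replicate 3) to 1008922 (SOX2 WT CHIR replicate 1), and the −log10 q at rank 20000 ran from 3.259 to 14.14. Read depth is unknown from these files, so no counting interval can be given, and a region without a peak was not detected at the depth of that library rather than shown to be free of the factor. LEF1 lists were long (175430 to 924506 peaks), and their part in the low LEF1 counts was not tested.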

How the data were processed

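Peaks of SOX2, β-catenin and LEF1 were analysed in 30 libraries with a peak list, in 10 groups of 3 replicates that the labels call biological replicates. Per the paper, the authors trimmed single-end reads with Trim Galore, aligned them to mm10 with BWA through the nf-core chipseq pipeline, and called narrow peaks with MACS at its default q in each library alone. The submitters' processing notes name MACS2 and mm10. The sources used here do not say which input served as control. As deposited, the ratio column holds each peak's fold enrichment over the MACS background. The deposited −log10 p and −log10 q come from the same call, and the lowest −log10 q in a list was 1.301 to 1.342. The deposited summit offset gave each position. The deposited score was not used.

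Peaks on autosomes, X and Y were put in order of −log10 q (ties by −log10 p, fold and position), and the 20000 best of each list were used because list lengths differed. Peaks were assigned to the window by summit and to the Hoxd gene with the nearest start in the basic GENCODE M21 annotation. For each factor, peaks sharing 1 bp or more formed a region, used for the calls of 3 of 3 against 0 of 3 libraries and for motifs. All 30 lists were merged for the regions named by position. The percentage beside a count is over all regions of the genome with a peak in either group, or over all protein-coding genes. A replicate with no peak counted as not called.

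Differences in means were tested with two-sided exact permutation tests (20 assignments for 3 against 3, 84 for 3 against 6) with Benjamini-Hochberg adjustment and a threshold of 0.05. The tests were checked on simulated data. Named were all 9 Hoxd genes, per factor the 3 regions called in most libraries (ties by mean rank), up to 3 regions per comparison and direction called in 3 of 3 against 0 of 3, and the 5 genes outside the Hox windows, with a peak in at least 15 libraries, whose count correlated best with the cluster. Sequences are those of the leading region of each part and of the regions called in 3 of 3 against 0 of 3. The members and lists were chosen with earlier results of these data known. Python 3.11.15, numpy 2.4.6, pandas 2.3.3 and scipy 1.17.1 were used. The inputs were not analysed here, and the count test of the study could not be run on peak lists.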

Additional observations from a re-analysis of the deposited data

How the results depend on the processing

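With 3 against 3 libraries or fewer no comparison of counts or shares could pass the threshold, so their alternatives bear on direction and size alone. Adjusted exact p ran from 0.525 to 1 for counts and from 0.467 to 1 for shares. For a mutant against the other genotypes, where a smaller p was possible, it ran from 0.286 to 1. Directions changed, and the cause was not tested. With the full lists the difference in Hoxd peak count from WT was -25.3 for SOX2 CdxKO, -35.7 for SOX2 T/BraKO, -6.0 for β-catenin T/BraKO and 11.3 for LEF1 CdxKO. With the 5000 best it was -0.667, -0.667 and 0.667 for SOX2 T/BraKO, β-catenin T/BraKO and LEF1 CdxKO. The difference in share with the full lists was -0.735 points for SOX2 CHIR, -1.47 for β-catenin CdxKO, 2.07 for LEF1 CdxKO and -0.141 for LEF1 T/BraKO. With the 5000 best it was -0.368 for SOX2 CHIR, -1.28 for β-catenin T/BraKO and 9.24 for LEF1 CdxKO. Against the other genotypes the count differed by -7.5 (SOX2 CdxKO) and 8.33 (LEF1 CdxKO) with the full lists, by -0.167 (β-catenin T/BraKO) and 0.167 (LEF1 CdxKO) with the 5000 best, and by 0.333 (SOX2 T/BraKO) when ranked by fold.

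Leaving out 1 replicate in turn moved the count difference from -0.167 to 3.83 for SOX2 CdxKO and from -1.5 to 2.5 for SOX2 T/BraKO, both negative without SOX2 WT CHIR replicate 1. It ran from -3.83 to 0.667 for β-catenin CdxKO (positive without replicate 1 of WT or of CdxKO) and from -0.333 to 1.17 for LEF1 T/BraKO (negative without WT replicate 2 or T/BraKO replicate 3). The share ran from -2.1 to 2.15 points for SOX2 CHIR (negative without WT CHIR replicate 2 or WT noCHIR replicate 1), from -3.31 to 0.979 for SOX2 T/BraKO (positive without WT CHIR replicate 2 or T/BraKO replicate 3) and from -0.152 to 6.61 for β-catenin CdxKO (negative without CdxKO replicate 3). Without a change of direction the count difference ran from 1.17 to 5.17 for SOX2 CHIR, from 2.33 to 6.17 for β-catenin T/BraKO and from -2.33 to -0.833 for LEF1 CdxKO, and the share from 2.13 to 6.38 points for SOX2 CdxKO, 1.14 to 4.05 for β-catenin T/BraKO, -3.62 to -0.743 for LEF1 CdxKO and 4.99 to 8.77 for LEF1 T/BraKO. Against the other genotypes SOX2 T/BraKO ran from -1.4 to 0.2 (positive without WT CHIR replicate 3, CdxKO replicate 1 or T/BraKO replicate 3). Replicate numbers showed no sign of pairing the samples in the calls. Deviations of same-numbered libraries from their group means correlated between -0.0214 and 0.0318 over 21 pairs, under 0.1. A pairing that left the calls unchanged would not be seen this way. With the replicate block the difference was again 3.0 peaks for SOX2 CHIR, as it must be in a balanced design, and its smallest possible p of 0.25 allowed no call.

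Hoxd regions called in 3 of 3 against 0 of 3 libraries, in either direction, numbered 1 for SOX2 CHIR, 5 for SOX2 CdxKO, 3 for SOX2 T/BraKO, 2 for β-catenin CdxKO and 1 for LEF1 CdxKO with the full lists. For β-catenin T/BraKO the full lists also gave 1, but another region, called in T/BraKO and not in WT. They numbered 0 for β-catenin CdxKO and 0 for β-catenin T/BraKO with the 5000 best, and 2 for β-catenin CdxKO under the stricter call by summit distance. Shares over all regions were not taken under these alternatives, so the counts bear on the Hoxd calls alone. Merging over all 30 libraries, an alternative added after the data were seen, changed no count by more than 1.5 times. By nearest gene body in place of nearest start the percentages were 0.844 for Hoxd12, 2.11 for Hoxd10, 7.17 for Hoxd4, 45.6 for Hoxd3 and 14.3 for Hoxd1. With the full lists they were 8.76 for Hoxd11, 14.4 for Hoxd1, 33.1 for the posterior and 55.1 for the anterior part, the last also added after the data were seen. With 2500 bp on either side of a start, occupied Hoxd genes of 9 are given with the share of all protein-coding genes. For SOX2 they numbered 0 in WT noCHIR (against 14.9%), 3 in WT CHIR (10.3%), 4 in CdxKO (15.4%) and 2 in T/BraKO (13.7%). For β-catenin they numbered 4 in WT (10.3%), 3 in CdxKO (9.1%) and 4 in T/BraKO (10.9%). For LEF1 they numbered 1 in WT (2.96%), 1 in CdxKO (3.53%) and 2 in T/BraKO (2.8%). Within 250 bp of the summit, SOX matches were in 32.1% of the SOX2 regions of the window (against 26.5% of all SOX2 regions). CDX matches were in 28.6% of them (against 33.5%). In β-catenin regions CDX matches were in 47.4% (against 32%). In LEF1 regions TCF/LEF matches were in 47.8% (against 27%) and CDX matches in 56.5% (against 35.9%). Read depth is unknown, which limits every absent peak.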
